A study of Rattus norvegicus with 12 samples.

Results

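The effect of brain death on gene expression in rat lung was taken as an average over animals with and without the S1P1 agonist SEW-2871. All 12 arrays of the series entered it, 6 with brain death and 6 without. The effect without the drug was BD minus sham, the effect with the drug was BD/SEW minus SEW, and the average effect was the mean of both. Of 14217 genes measured, 1351 were called for the average effect at an adjusted p under 0.05. A called gene counted as shared when both effects had the same sign and the smaller was at least 0.5 times the larger, and 594 genes met this rule. The level of a gene is given as a log2 expression value, so a difference of 1 is a 2-fold change.

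The animals were male wild type Sprague Dawley rats of 250 to 350 g, and the tissue was lung. Each group held 3 arrays. Sham animals served as controls, and BD animals were made brain-dead with a 4 Fr Fogarty balloon catheter inflated outside the dura. SEW animals received SEW-2871 into a vein at 0.1 mg/kg, and BD/SEW animals received this dose 15 min after brain death. Every array was made from 6 ug of total RNA. The labels do not say whether SEW animals had the sham operation, when the lungs were taken, or which animal gave which array. The p-values therefore measure the spread between samples, which may be technical. S1pr1, the gene of the receptor on which the drug acts, had an average effect of -0.01 ± 0.05 (log2, SE; limma adjusted p = 0.951).

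Brain death is a sudden loss of all brain function under raised intracranial pressure. It is accompanied by a surge of catecholamines, followed by loss of sympathetic tone and of pituitary hormones, and donor lungs are known to show inflammation. Interferons switch on a set of interferon-stimulated genes, in part through IRF factors. Catecholamines act through cyclic AMP, the kinase PKA and the factor CREB on genes such as Crem, Sik1 and Nr4a1, and glucocorticoids act through their nuclear receptor on genes such as Dusp1, Per1 and Ddit4.

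The promoter stretches below come from genes that carried the shared response, and they show the letters through which such signals are known to act. They were taken from RefSeq (assembly GRCr8), within 250 bases before to 50 bases after an annotated start. Capitals mark the 1 match each stretch is shown for, to TTCNNNGAA (gamma activated site), GAAANNGAAA (interferon response element) or TGACGTCA (cyclic AMP response element), searched on both strands. The Igtp stretch and the later Crem stretch also hold a match to TTCNNNGAA, left in lower case. The first 3 genes rose and the others fell in both strata. These stretches are a selection of the matches found. Per1, which fell, also held a match to GAAANNGAAA, which is not shown.
Irf1, chr10:38417763-38417831, plus strand: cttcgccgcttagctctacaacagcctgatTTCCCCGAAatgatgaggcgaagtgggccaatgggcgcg
Gbp2, chr2:234005666-234005726, plus strand, element on the opposite strand: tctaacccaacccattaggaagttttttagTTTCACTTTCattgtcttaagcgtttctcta
Igtp, chr10:42874914-42874983, plus strand: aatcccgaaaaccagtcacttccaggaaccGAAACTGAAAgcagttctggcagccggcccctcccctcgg
Crem, chr17:58984711-58984778, plus strand: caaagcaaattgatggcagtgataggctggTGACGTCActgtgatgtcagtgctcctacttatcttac
Crem, a start further along the gene, chr17:58985425-58985489, plus strand: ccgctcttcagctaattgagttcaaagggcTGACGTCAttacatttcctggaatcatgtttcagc
Dusp1, chr10:17184699-17184766, plus strand: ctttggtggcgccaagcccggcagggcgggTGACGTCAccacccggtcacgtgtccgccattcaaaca
Ppargc1a, chr14:63634097-63634164, plus strand: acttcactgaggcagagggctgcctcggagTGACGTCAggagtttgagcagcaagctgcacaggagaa
These matches are descriptions of the letters and not measured binding sites. TGACGTCA lay in 3.53% of the 368 promoter windows of the shared genes that fell, and in 2.70% of the 13242 windows of all measured genes. Over all measured genes, GAAANNGAAA lay in 3.01% of the windows and TTCNNNGAA in 7.35%. No share is given for the genes that rose, because a window was found for only 153 of 204 of them, or 75.0%. For the falls it was 339 of 390, or 86.9%.

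Of the 1351 called genes, 625 rose and 726 fell, which is 9.50%, 4.40% and 5.11% of the genes tested. The shares of 4.40% and 5.11% are the background for each count of list members below. A count near them is no more than the genes at large show. Members and lists were chosen with earlier results of these data known, so a count above them is a description and not a test. Among the 594 shared genes, 204 rose and 390 fell, or 32.6% of the called rises and 53.7% of the called falls. The split between rises and falls moved with the scaling of the arrays. With each array centred on its median, 755 genes rose and 575 fell, and the shared genes were 293 that rose and 291 that fell. The share of rises was then 56.8% of called and 50.2% of shared genes, against 46.3% and 34.3%.

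Most called genes outside the rule moved in one direction by unequal amounts. Of the 625 rises, 381 had the same sign in both strata with a smaller effect below 0.5 times the larger, and 354 of these were larger with the drug. Another 40 had opposite signs. Of the 726 falls, 323 were unequal, 286 of them larger with the drug, and 13 had opposite signs. The shared genes were also more often larger with the drug, namely 126 of 204 rises and 279 of 390 falls. The difference between the 2 effects, tested as an interaction, was called for 135 genes (0.950% of those tested), 97 of them among the 1351 and 0 among the 594. At an unadjusted p under 0.05 the interaction took in 9 shared rises and 10 shared falls, which the rule on size limits.

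**Figure D1:**
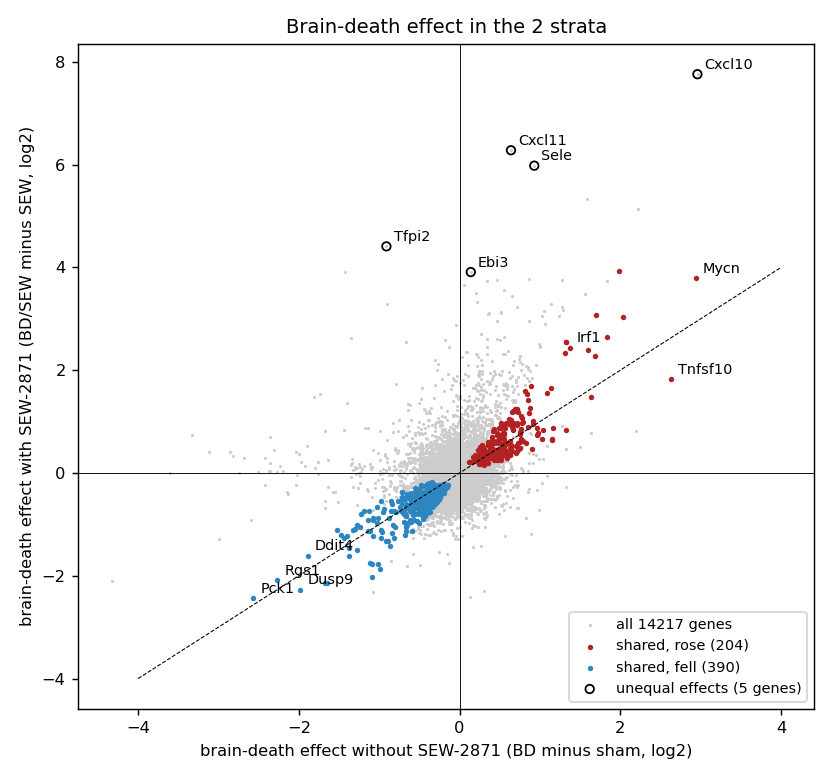
Each point is 1 of 14217 genes, with the brain-death effect without SEW-2871 on the horizontal axis and with it on the vertical axis, both in log2 units, and a dashed line where they are equal. The 204 shared rises (red) and 390 shared falls (blue) lie near that line, while the 5 circled genes, such as Cxcl10 at 2.96 and 7.76, lie far above it.

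The 2 strata share no array, so each can be read against the other. Over all 14217 genes the effects had the same sign for 58.3%, with r = 0.36 across genes, which are not independent replicates. Without the drug, 84 genes were called (0.591%), and with it 1392 (9.79%), of which 676 rose (4.75%) and 716 fell (5.04%). Of the 84, 77 genes (91.7%) moved the same way with the drug, and 55 were also called there in the same direction. These 55 genes are 65.5% of the first list and 3.95% of the second, and 51 of them met the rule for shared genes. All 30 rises called without the drug were above 0 with it, as against 47 of the 54 falls below 0. The other 7 falls, named here after their values were seen, were Cemip2, Clec10a, Csf3, Olah, Prss22, Prss30 and Slc7a5.

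The arrays of both groups lay apart in the same direction within both strata for 810 genes (5.70% of all). Among shared genes this held for 154 of 204 rises and 297 of 390 falls, and the rule itself favours such genes. The average effect of the shared rises ran from 0.17 to 3.37 with a median of 0.54, and that of the shared falls from -2.51 to -0.19 with a median of -0.47. The median over all genes was -0.003. At least 2-fold changes were made by 23 of the shared rises and 36 of the shared falls.

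Transcripts of cardiac muscle, adipose tissue and airway epithelium were high on some arrays, and their origin was not tested. The mean level of 19 cardiac muscle markers was 9.18 to 10.19 in sham and 11.17 in BD replicate 2, against 5.87 to 7.91 on the other 8 arrays. Sham (8.61 to 9.64) and BD replicate 2 (9.18) were also the high ones for the average of 12 adipose markers, with 6.73 to 7.43 elsewhere. The mean of 11 airway epithelial markers was highest on the same arrays, at 10.05 to 10.34 in sham and 10.20 in BD replicate 2. It was 7.94 to 9.47 elsewhere. In SEW replicate 2 the 9 heat shock genes averaged 12.78, against 10.48 to 10.95 elsewhere. In array weights estimated from the data, sham replicate 3 (0.247) and SEW replicate 2 (0.318) were lowest. With BD replicate 2, SEW replicate 2 and sham replicate 3 left out together, 2128 genes were called, 994 met the rule, and 404 of the 594 were among them. The cardiac means left were 10.19 and 9.69 in sham against 6.23 and 7.09 in BD. This fit therefore does not remove the imbalance without the drug, where BD replicate 2 was the BD array most like sham. Calls without the drug were 499 in it, 84 on all arrays and 29 with the cardiac mean as a covariate. With the cardiac mean as a covariate, 559 met the rule, 464 of the 594 among them. Within bulk tissue, fewer cells of a type and less RNA per cell cannot be told apart.

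Mycn, a MYC family transcription factor that drives growth, had the largest shared rise. Its level was 6.55, 6.79 and 7.16 in sham and 10.45, 9.34 and 9.52 in BD. With the drug it was 6.10, 6.48 and 5.48 in SEW and 9.87, 9.48 and 10.09 in BD/SEW. All 6 arrays with brain death lay above all 6 without. The average effect was 3.37 ± 0.22 (SE; limma adjusted p = 1.69e-05), a 10.3-fold rise, made of 2.94 without and 3.79 with the drug. The SEW arrays reach down to about the lower quartile of each array (5.56 to 5.66), so the size of the effect with the drug is uncertain. Over the 11 MYC family genes and partners measured, 2 rose and 0 fell, with a median average effect of 0.03, so Mycn stood far from the middle of its list.

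Tnfsf10 encodes TRAIL, a ligand of death receptors. It measured 8.44, 8.56 and 8.34 in sham, 10.97, 11.25 and 11 in BD, 8.74, 9.33 and 9.46 in SEW, and 10.87, 11.25 and 10.89 in BD/SEW. The groups did not overlap, and the 6 arrays with brain death lay close together, from 10.87 to 11.25. The average effect was 2.23 ± 0.13 (limma adjusted p = 1.68e-05), and here the effect was larger without the drug (2.63) than with it (1.83). The interaction was -0.80, with a 95% interval of -1.35 to -0.25 and an adjusted p of 0.213. Of 14 measured TNF family ligands and death receptors, 4 rose and 0 fell. The other 3 rose unequally, namely the receptor Fas by 0.73 and 1.54, the co-stimulatory receptor Cd40 by 0.76 and 2.28, and the inflammatory caspase Casp4 by 0.45 and 1.21 without and with the drug.

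Ripk2, the kinase that relays NOD receptor signals, rose from 8.86, 8.57 and 8.29 in sham to 11.04, 10.30 and 9.89 in BD. With the drug it rose from 7.71, 8.38 and 7.63 to 10.90, 10.44 and 10.30. No array with brain death overlapped one without, and the average effect was 2.24 ± 0.21 (limma adjusted p = 0.000144). Of the 18 innate sensors and adaptors measured, 7 rose and 0 fell, and Ripk2 was the only shared one.

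Irf1, an interferon-induced transcription factor whose promoter holds the TTCCCCGAA shown above, was 11.06, 11.40 and 11.41 in sham and 12.57, 12.80 and 12.60 in BD. With the drug it was 10.46, 10.95 and 10.27 in SEW and 13.11, 13.06 and 12.82 in BD/SEW. Both differences exceeded the spread between arrays, and the average was 1.90 ± 0.12 (limma adjusted p = 1.69e-05). The effects of 1.37 and 2.44 met the rule for shared genes, while the interaction had an adjusted p of 0.0598, just above the threshold. Of 7 interferon regulatory factors, 2 rose and 0 fell, Irf7 being the other at 0.70 and 1.77.

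**Figure D2:**
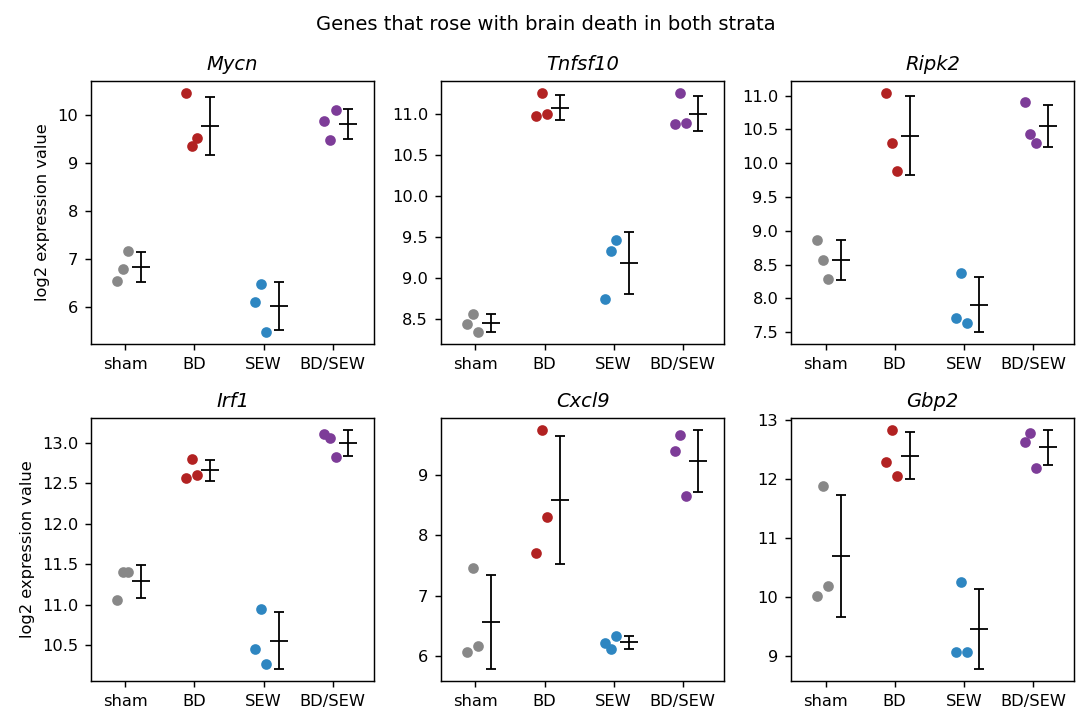
Log2 expression value of 6 shared rises on every array, by group (sham, BD, SEW, BD/SEW), with points for the 3 arrays and a bar for the mean ± SD. In each panel both brain-death groups lie above their own controls, as for Tnfsf10 with 10.97 to 11.25 in BD against 8.34 to 8.56 in sham, and sham replicate 2 is high for the interferon-induced genes Cxcl9 and Gbp2.

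Interferon-stimulated genes rose almost as a block. Of 27 measured, 23 rose and 0 fell (4.40% of all genes rose), with a median average effect of 1.29. Their medians were 0.89 without and 1.77 with the drug, and 0 of the 27 were called for the interaction (limma; 14 at an unadjusted p under 0.05). Only 6 met the rule for shared genes. All 17 of the other called genes had effects above 0 in both strata, larger with the drug. The ratio was at least 0.33 in 15 of them. Tested within a stratum, 0 of the 27 were called without the drug and 22 with it.

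Among these 6, Cmpk2, a nucleotide kinase induced by interferon, was 8.78, 11.57 and 10.67 in sham and 11.61, 12.84 and 12.51 in BD. It was 8.48, 8.42 and 8.94 in SEW and 12.61, 12.69 and 12.33 in BD/SEW. Sham replicate 2 lay just under the lowest BD array without overlap, and the average effect was 2.96 ± 0.39 (limma adjusted p = 0.000972). Cmpk2 rose by 1.98 without and 3.93 with the drug, which lies at the cut of 0.5. It met the rule in 7 of 12 fits with 1 array left out. Gbp2, a guanylate-binding protein of the interferon-gamma response, was 10.02, 11.87 and 10.18 in sham, 12.28, 12.83 and 12.05 in BD, 9.07, 10.25 and 9.06 in SEW, and 12.62, 12.77 and 12.19 in BD/SEW. Again the lowest BD array stood just above sham replicate 2, and the average was 2.38 ± 0.32 (limma adjusted p = 0.00115). Gbp2 rose by 1.70 without and 3.07 with the drug, and met the rule in 8 of 12 such fits. Igtp, an interferon-gamma-induced GTPase, changed by 1.60 without and 2.40 with the drug, an average of 2.0 ± 0.26.

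The antiviral GTPase gene Mx1 met the rule with 1.69 and 2.28, but sham replicate 2 at 11.07 overlapped BD at 10.05 to 11.99. Its call (adjusted p = 0.0345) was kept in 4 of 12 fits that left out 1 array each. Ifi44 and Ifi44l rose by 0.84 and 0.89 without the drug and by 1.54 and 1.70 with it. Outside the rule, the guanylate-binding Gbp4 rose by 1.83 and 3.73 and the antiviral enzyme Rsad2 by 2.22 and 5.14. Mx and Gbp genes belong to families whose members can share probes, so their values are less certain.

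Single sham and BD arrays moved how many interferon-stimulated genes counted as shared. The mean level of the list was 9.19, 10.67 and 9.44 on the 3 sham arrays, so replicate 2 stood among the BD arrays (10.27, 11.07 and 10.91). It was 8.67 to 8.98 in SEW and 10.72 to 10.98 in BD/SEW. Without sham replicate 2, 25 of the 27 rose and 23 were shared. Leaving out any other single array gave 2 to 12 shared genes, 2 of them without sham replicate 1 or without BD replicate 2 and 12 without BD replicate 1. With the 3 arrays named above left out, 20 rose and 0 were shared. The rise in the average effect was thus found in every one of these fits, and its equality across strata was not.

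Chemokines attract leukocytes, and 10 of 25 measured rose while 0 fell. Cxcl9, an interferon-induced ligand of the T cell receptor Cxcr3, was shared. Its level was 6.07, 7.46 and 6.16 in sham and 7.71, 9.76 and 8.30 in BD, then 6.21, 6.12 and 6.32 in SEW and 9.40, 9.67 and 8.66 in BD/SEW. The groups did not overlap, and the average effect was 2.53 ± 0.35 (limma adjusted p = 0.00119). All arrays without brain death but sham replicate 2 lay below the 25th percentile of gene means (6.555), so the size is uncertain. Ccl4, an inflammatory chemokine, rose by 1.32 and 2.54 and was also apart in both strata. Ccl6, a macrophage chemokine, rose by a modest 0.46 and 0.45 (adjusted p = 0.0164). The remaining 7 called chemokines had effects above 0 in both strata, all larger with the drug, as in the monocyte attractant Ccl2 with 1.58 and 5.33. Tested within a stratum, 0 of the 25 were called without the drug and 10 with it. The receptor genes Cxcr3 and Cxcr4, picked after their values were seen, fell. Cxcr3 fell by 0.29 and 0.46 and Cxcr4 by 0.58 and 0.82 (adjusted p = 0.0189 and 0.0345), the second keeping its call in 6 of 12 fits with 1 array left out.

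Of 23 measured cytokines, 6 rose and 1 fell. Il10, which restrains inflammation, was 5.13, 5.33 and 5.20 in sham and 5.64, 6.10 and 5.94 in BD. It was 4.81, 5.29 and 4.68 in SEW and 5.85, 5.93 and 5.90 in BD/SEW. The groups were apart, but the values lie near the lower quartile of each array (5.56 to 5.66), so the size of 0.82 ± 0.11 is uncertain. Csf1, the macrophage growth factor, rose by 0.66 and 0.98 (average 0.82 ± 0.10, limma adjusted p = 0.000785).

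Il1a, the cell-bound form of interleukin-1, was the called fall. It was 10.99, 10.96 and 10.88 in sham and 10.35, 9.59 and 9.24 in BD, then 11.07, 11.51 and 10.83 in SEW and 10.98, 10.17 and 9.85 in BD/SEW. The groups were apart without the drug and overlapped with it, and the average was -1.01 ± 0.22 (limma adjusted p = 0.0136). That call was lost when the mean of the gene's probe sets was used and when the 3 arrays were left out together. Il1b, the secreted form, rose by 1.05 and 3.16, so the 2 interleukin-1 genes were called in opposite directions.

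Among 16 genes of the interleukin-6 axis, 7 rose and 1 fell. The fall was the receptor gene Il6r, at 11.43, 11.15 and 11.11 in sham against 10.14, 10.44 and 10.46 in BD. It was 11.35, 11.21 and 11.34 in SEW against 10.46, 10.39 and 10.41 in BD/SEW. The groups did not overlap, the effect was -0.88 in each stratum, and the average was -0.88 ± 0.08 (limma adjusted p = 0.000142). The ligand gene Il6 had -1.43 and 3.92 and was not called. Lifr, a receptor of the same family, rose by 0.57 and 0.44, and the kinase gene Pim2 by 0.39 and 0.51. The Pim2 call was kept in 2 of 12 fits with 1 array left out, and the count of 7 rises fell to between 3 and 5 in all such fits but that without SEW replicate 2, where it was 8.

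Icam1, the adhesion molecule that leukocyte integrins bind, was the only shared rise among 17 genes of endothelial activation. It was 12.53, 12.62 and 12.08 in sham and 13.37, 13.21 and 13.08 in BD, then 12.07, 11.38 and 11.86 in SEW and 13.48, 13.38 and 13.22 in BD/SEW. The 6 arrays with brain death lay above the 6 without, and the average was 1.20 ± 0.13 (limma adjusted p = 0.000257). Icam1 rose by 0.81 without and 1.59 with the drug, a ratio of 0.51 that lies close to the cut. It met the rule in 7 of 12 fits with 1 array left out. With the cardiac covariate, with array weights and without the 3 arrays named above, 0 rises of this list were shared. Of the whole list, 4 rose and 5 fell. The shared falls were F3, tissue factor, by 0.54 and 0.39, and Plat, tissue plasminogen activator, by 0.46 and 0.50. The Plat call was kept in 6 of 12 fits with 1 array left out.

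Adm encodes adrenomedullin, a vasodilator peptide, and was 8.48, 8.54 and 8.64 in sham, 9.63, 9.27 and 9.30 in BD, 7.90, 8.32 and 8.22 in SEW, and 9.90, 9.33 and 9.46 in BD/SEW. The groups were apart, with an average of 1.13 ± 0.12 (limma adjusted p = 0.000242). Npy encodes neuropeptide Y, which sympathetic nerves release. It was 9.23, 8.18 and 8.33 in sham and 9.60, 9.89 and 9.67 in BD, then 9.20, 7.41 and 8.79 in SEW and 9.69, 10.61 and 10.07 in BD/SEW, apart in both strata with an average of 1.40 ± 0.29 (limma adjusted p = 0.0116). Adrb1, the beta-1 adrenergic receptor gene, rose by 1.02 and 0.67.

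The list of largest shared rises was completed by Dact2 (1.56 ± 0.17), a modulator of Wnt and TGF-beta signalling, Rerg (1.32 ± 0.19), a Ras-like GTPase, and Flrt3 (1.02 ± 0.17), a membrane protein of cell adhesion and guidance. Dact2 was nearly equal in both strata at 1.63 and 1.48. Of 13 genes for MHC class I presentation, 4 rose and 0 fell, and 3 were shared. The immunoproteasome subunits Psmb8 and Psmb9 rose by 0.83 and 0.42 without the drug and by 0.59 and 0.63 with it. RT1-M3-1 rose by 0.34 and 0.33, a call kept in 3 of 12 fits with 1 array left out.

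Rgs1, a regulator that shortens G protein signals in leukocytes, fell by 2.27 without and 2.09 with the drug. It was 10, 10.09 and 10.03 in sham and 7.34, 7.94 and 8.04 in BD, then 10.43, 9.74 and 9.79 in SEW and 7.94, 7.97 and 7.78 in BD/SEW. A wide gap, from 8.04 to 9.74, separated all arrays with brain death from all without, and the average was -2.18 ± 0.14 (limma adjusted p = 1.69e-05), a 4.53-fold fall. Rgs2 fell by 0.73 in both strata, while Rgs3 rose by 0.74 and 0.47 with a call kept in 4 of 12 fits with 1 array left out. With the mean of its probe sets the average for Rgs3 was 0.15 (limma adjusted p = 0.67) in place of 0.60. Of 15 such regulators, 2 rose and 2 fell, with 1 to 3 rises and 2 to 3 falls in the fits with 1 array left out.

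Genes of the response to cyclic AMP and catecholamines fell. Of 19 measured, 9 fell and 1 rose, and all 10 met the rule for shared genes, beside 5.11% and 4.40% of all genes that fell and rose. The list's median average effect was -0.27. Tested within a stratum, 3 of the 19 fell and 1 rose without the drug, and 4 fell and 1 rose with it. The list was chosen with earlier results of these data known, so its count is a description. The mean level of the list was 9.02 to 9.23 in sham against 8.60 to 8.67 in BD, and 8.76 to 9.05 in SEW against 8.54 to 8.73 in BD/SEW. Each brain-death group lay below its controls. The falls numbered 7 to 9 whichever single array was left out, 9 without the 3 arrays together and 7 with the cardiac covariate.

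Crem encodes a cyclic AMP-induced factor that feeds back on CREB, and both its promoter stretches shown above hold TGACGTCA. Its level was 11.48, 11.61 and 11.98 in sham and 9.74, 10.01 and 10.75 in BD, then 11.66, 11.49 and 11.63 in SEW and 11.13, 10.23 and 10.11 in BD/SEW. The groups were apart in both strata, and the average was -1.31 ± 0.20 (limma adjusted p = 0.00214). Sik1, a kinase induced by the same signal, was 10.48, 10.43 and 10.32 in sham and 9.17, 9.27 and 9.47 in BD, then 10.51, 10.07 and 10.45 in SEW and 9.27, 9.27 and 9.13 in BD/SEW. Its effects of -1.11 and -1.12 were nearly identical, and the 95% interval of their difference was -0.41 to 0.38.

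The phosphodiesterase genes Pde4d and Pde10a, whose enzymes break down cyclic AMP, fell by 0.81 and 0.65 without the drug and by 0.73 and 1.02 with it. The nuclear receptor gene Nr4a1 fell by 0.59 and 0.45, and its relative Nr4a2, from the list of immediate early genes, by 0.50 and 0.97. Ppargc1a, a coactivator of mitochondrial genes, had -1.19 and -0.73. In SEW it was 8.94, 7.26 and 8.85 against 7.87, 7.42 and 7.56 in BD/SEW, so SEW replicate 2 overlapped, and the call (adjusted p = 0.0322) was kept in 3 of 12 fits with 1 array left out. Pde10a kept its call in 4 of 12.

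Of 19 glucocorticoid response genes, 7 fell and 2 rose (5.11% and 4.40% of all genes), and 4 of the falls were shared. Ddit4, an inhibitor of mTORC1 induced by glucocorticoids and stress, was 11.78, 11.51 and 10.87 in sham and 9.45, 9.77 and 9.28 in BD. It was 11.91, 12.26 and 11.89 in SEW and 10.76, 10.42 and 10.05 in BD/SEW. All arrays with brain death lay below all without, and the average was -1.75 ± 0.17 (limma adjusted p = 0.000163). Dusp1, a phosphatase that switches off MAP kinases, was 13.66, 13.53 and 13.29 in sham, 12.84, 12.83 and 12.79 in BD, 13.68, 13.83 and 13.70 in SEW, and 13.21, 13.05 and 12.90 in BD/SEW. It fell by 0.67 and 0.68 without overlap, an average of -0.68 ± 0.07 (limma adjusted p = 0.000293).

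The clock gene Per1, induced by both signals, fell by 0.76 and 0.54 (adjusted p = 0.0143). Errfi1, a feedback inhibitor of the EGF receptor, fell by 0.80 and 1.06, and Egfr itself, outside the lists and picked after its values were seen, by 0.61 and 0.96. Sgk1, a kinase that activates sodium channels, went the other way with 0.69 and 1.21. The receptor gene Nr3c1 rose by 0.31 and 0.16, with a call kept in 2 of 12 fits with 1 array left out. The called falls outside the rule were unequal, as in Tsc22d3 at -0.27 and -1.12 and Cebpb at -1.24 and -0.20. Without the 3 arrays named above, 9 of the 19 genes fell and 7 of these were shared.

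**Figure D3:**
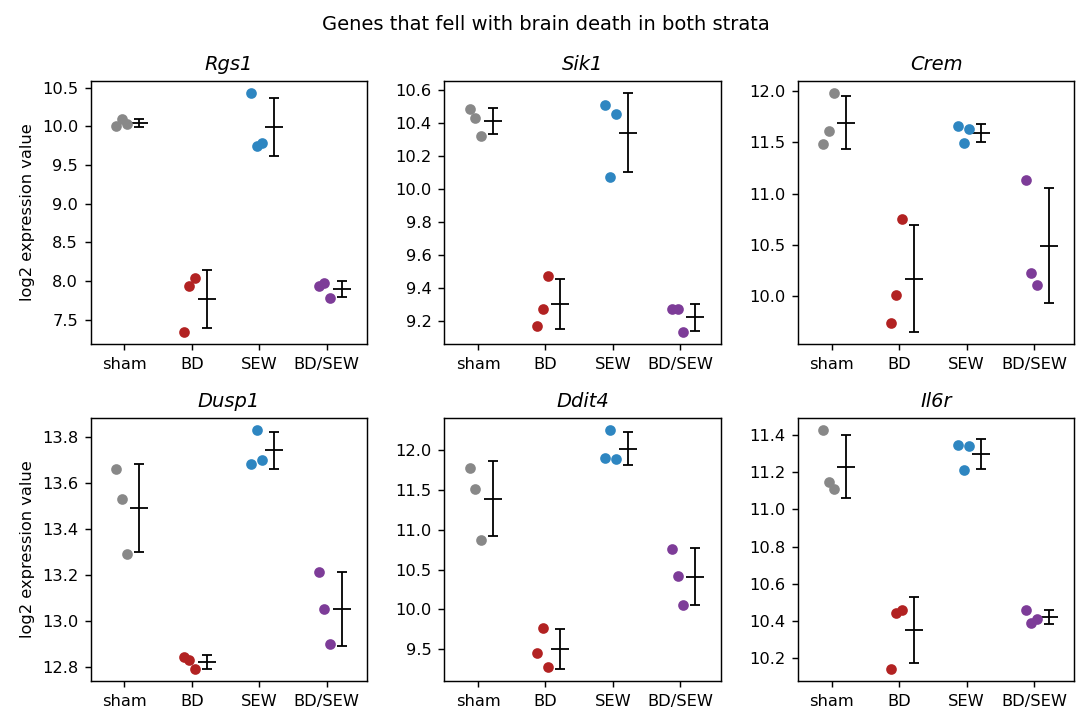
Log2 expression value of 6 shared falls on every array, by group, with points for the 3 arrays and a bar for the mean ± SD. Both brain-death groups lie below their own controls in each panel, with Rgs1 at 7.34 to 8.04 under brain death and 9.74 to 10.43 without it.

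Of 10 phosphatases of the DUSP family 2 fell and 0 rose, and the falls were 1 or 2 whichever single array was left out. Dusp6 fell by 0.41 and 0.76, a call kept in 4 of 12 fits with 1 array left out. Dusp9, outside the list, was among the largest falls. It was 7.10, 6.87 and 7.85 in sham, 5.13, 5.23 and 5.51 in BD, 8.10, 7.11 and 6.94 in SEW, and 5.20, 5.01 and 5.14 in BD/SEW. The groups were far apart, but under brain death the levels were lower than each array's lower quartile, so the average of -2.12 ± 0.21 (limma adjusted p = 0.000173) is uncertain in size.

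Ramp3 encodes the accessory protein that turns the calcitonin-like receptor into an adrenomedullin receptor. It was 9.34, 9.39 and 7.87 in sham and 6.54, 7.47 and 7.63 in BD, then 9.61, 9.25 and 9.26 in SEW and 7.35, 7.29 and 7.07 in BD/SEW. Sham replicate 3 lay just above the highest BD array, and the average was -1.90 ± 0.27 (limma adjusted p = 0.00136). Adm, the ligand, rose as given above. Gpr182, a receptor gene picked after its values were seen, fell by 0.68 and 1.20 (adjusted p = 0.0138) with overlap between BD and sham.

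Cnr1, the cannabinoid receptor CB1, was 9.19, 9.35 and 8.56 in sham and 7.80, 8.20 and 7.75 in BD, then 10.07, 10.18 and 9.82 in SEW and 8.09, 8.43 and 8.27 in BD/SEW. It was apart throughout, with an average of -1.44 ± 0.14 (limma adjusted p = 0.000185). Id1, an inhibitor of basic helix-loop-helix factors that BMP signals induce, was 12.86, 12.92 and 12.99 in sham and 12.00, 12.14 and 12.20 in BD, then 13.36, 13.42 and 13.24 in SEW and 12.43, 12.06 and 11.72 in BD/SEW. Its groups were also apart, and the average was -1.04 ± 0.10 (limma adjusted p = 0.000173). Bmp6, a BMP ligand, rose by 0.96 and 0.87 at the same time. Of 19 genes of BMP, ID and WNT signalling these were the only 2 called, and 1 to 3 rose and 1 to 2 fell in the fits with 1 array left out.

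Pck1, the rate-limiting enzyme of gluconeogenesis, had the most negative average of the shared genes, -2.51 ± 0.59 (limma adjusted p = 0.0211). Its level was 11, 10.90 and 10.73 in sham and 6.85, 10.37 and 7.69 in BD, then 10.27, 11.72 and 8.72 in SEW and 7.72, 7.25 and 8.41 in BD/SEW. The BD arrays were far from one another, and BD replicate 2, the highest, was also the one with cardiac and adipose transcripts. Adipocytes express Pck1, and the part of these markers in its fall was not tested. The call was kept in 10 of 12 fits with 1 array left out, and was lost without BD replicate 3 and without BD/SEW replicate 2.

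Got1, the cytosolic aspartate aminotransferase, changed by -1.38 and -1.62, and Slc25a15, the mitochondrial ornithine carrier, by -1.38 and -1.46. Both were picked among genes apart in both strata. Their averages were -1.50 ± 0.21 and -1.42 ± 0.23 (limma adjusted p = 0.00134 and 0.00292). The amino acid transporter Slc38a2, picked after its values were seen, fell by 0.79 and 0.76 (adjusted p = 0.000145). Of 16 genes that control glucose and lipid use, 3 rose and 4 fell, and Ppargc1a was the only shared one. Over the 12 fits with 1 array left out 1 to 3 rose and 1 to 6 fell, with 0 to 3 of the falls shared. With the cardiac covariate 3 fell and 0 were shared.

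The other named falls include the Groucho co-repressor Tle1 (-1.56 ± 0.14), the matrix protease Adamts9 (-1.38 ± 0.13), the zinc finger gene Zfp800 (-1.43 ± 0.20) and Fam222a (-1.91 ± 0.14). S100pbp and the uncharacterised genes LOC102555465 and LOC102554570 fell by 1.40, 1.43 and 1.34. All 7 were picked among genes apart in both strata, and all were called in each of the 12 fits with 1 array left out. Some were uneven, as in Tle1 at -1.09 without and -2.03 with the drug, Zfp800 at -0.99 and -1.87, and S100pbp at -1.02 and -1.78. Tle1 and Zfp800 met the whole rule in 9 of these 12 fits, LOC102555465 in 11 and the rest in all 12. Aqp4, a water channel, fell by 0.69 and 0.95 (adjusted p = 0.00458). Ndrg1, a target of hypoxia signalling, fell by 0.62 and 0.74. Herpud1 and Dnajb9, of the unfolded protein response, fell by 0.51 and 0.28 without the drug and by 0.65 and 0.36 with it, and Dnajb9 kept its call in 3 of 12 fits with 1 array left out.

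Calls in the stress and growth lists were few, and single arrays moved them. Of 13 hypoxia targets 2 rose and 1 fell, with 1 to 3 rises and 1 to 2 falls when 1 array was left out. Of 14 antioxidant and metallothionein genes 4 rose and 1 fell. The rises there were 1 to 4 and the falls 0 to 2 when 1 array was left out. Given the cardiac covariate, they numbered 1 and 0. Of 13 genes of amino acid and unfolded protein stress 0 rose and 2 fell, the falls being 1 to 3 in the same fits. The glutathione peroxidases Gpx1 and Gpx2 split, with 0.12 and 0.22 for Gpx1 and -0.45 and -0.25 for Gpx2, calls kept in 4 and 3 of the 12 fits. Of 21 immediate early genes 5 rose and 2 fell, and the factor Klf6 was the only shared rise, by 0.44 and 0.58 (adjusted p = 0.000555). Of 20 cell cycle genes 1 rose, of 15 clock genes 1 fell, and of 9 sphingosine 1-phosphate genes 1 rose and 1 fell, the fall being lost with the cardiac covariate. Of 11 genes of sodium and water transport 1 rose and 3 fell. Their falls were 1 to 4 when 1 array was left out, and 1 both with the cardiac covariate and with each array centred on its median.

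A ligand and its receptor, both picked after their values were seen, fell together. Nrtn encodes neurturin, a growth factor of the GDNF family, and Ret the kinase receptor of that family. Nrtn was 8.49, 8.93 and 8.75 in sham against 7.41, 7.66 and 7.86 in BD, and 9.86, 8.52 and 8.66 in SEW against 8.05, 7.84 and 7.47 in BD/SEW. Ret was 10.36, 10.80 and 9.72 in sham against 9.29, 9.63 and 9.44 in BD, and 10.55, 10.72 and 10.65 in SEW against 9.96, 9.35 and 9.11 in BD/SEW. Neither overlapped within a stratum, and the averages were -1.15 ± 0.21 and -1.0 ± 0.18 (limma adjusted p = 0.00607 and 0.00531).

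**Figure D4:**
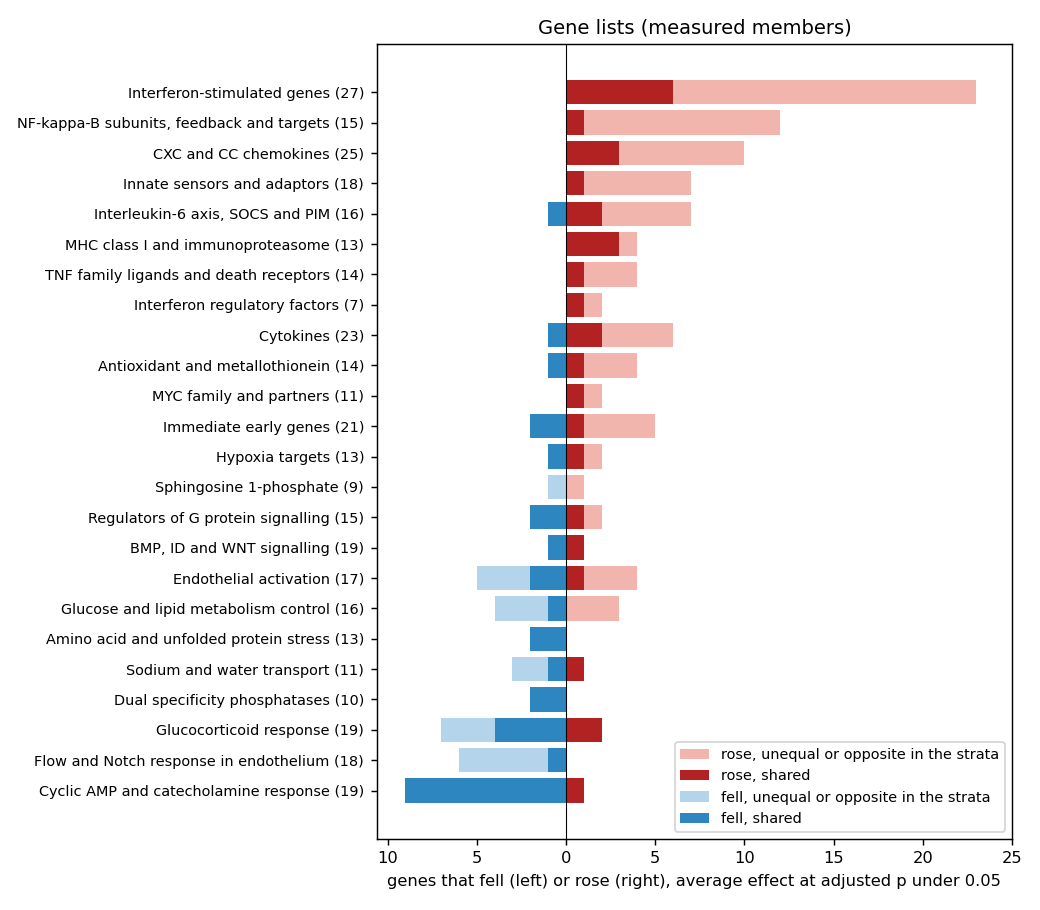
Bars give, for pathway lists with more than 1 called gene, how many measured members (number in brackets) rose to the right or fell to the left in the average effect, with the shared ones in dark colour. All 10 called genes of the cyclic AMP list are shared, against 6 of 23 interferon-stimulated genes and 1 of 12 NF-kappa-B genes.

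The NF-kappa-B list differed from the cyclic AMP list in how its calls arose. Of 15 subunits, feedback inhibitors and targets measured, 12 rose and 0 fell in the average effect, and 10 were called for the interaction. The medians were 0.20 without and 2.09 with the drug. The mean of the list was 10.47 to 10.57 in sham, 10.72 to 10.74 in BD, 8.99 to 9.61 in SEW and 10.90 to 11.24 in BD/SEW. The SEW group was thus the low one, and sham and BD lay close together. Nfkbid, an atypical inhibitor, was the only shared member and rose by 0.58 and 0.98 (average 0.78 ± 0.12, limma adjusted p = 0.0020). The feedback inhibitor Tnfaip3 had -0.05 and 2.88, and Birc3, an inhibitor of apoptosis, 0.20 and 3.5.

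The 5 genes with the largest interaction among called genes show the same levels in single genes. Cxcl10, an interferon-induced chemokine, was 8.64, 11.71 and 9.01 in sham and 11.54, 13.63 and 13.08 in BD, then 5.27, 5.88 and 5.14 in SEW and 13.05, 13.45 and 13.06 in BD/SEW. The low group was SEW, and the average effect of 5.36 ± 0.50 joined 2.96 and 7.76. Its sister Cxcl11 had 0.64 and 6.28. Sele, endothelial E-selectin, was 9.46, 9.75 and 9.97 in sham and 11.52, 10.35 and 10.09 in BD, then 4.31, 6.16 and 4.63 in SEW and 11.56, 11.04 and 10.45 in BD/SEW, with effects of 0.93 and 5.98. Ebi3, a subunit of interleukin-27 and interleukin-35, had 0.14 and 3.91, and Tfpi2, an inhibitor of the tissue factor pathway, -0.91 and 4.41. In SEW, the levels of Cxcl10, Cxcl11, Sele and Tfpi2 lay near or below the lower quartile of the arrays, so the size of the larger effect is uncertain. An average over strata describes these 5 genes poorly, although 4 of them kept their call in all 12 fits with 1 array left out and Tfpi2 in 3.

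**Figure D5:**
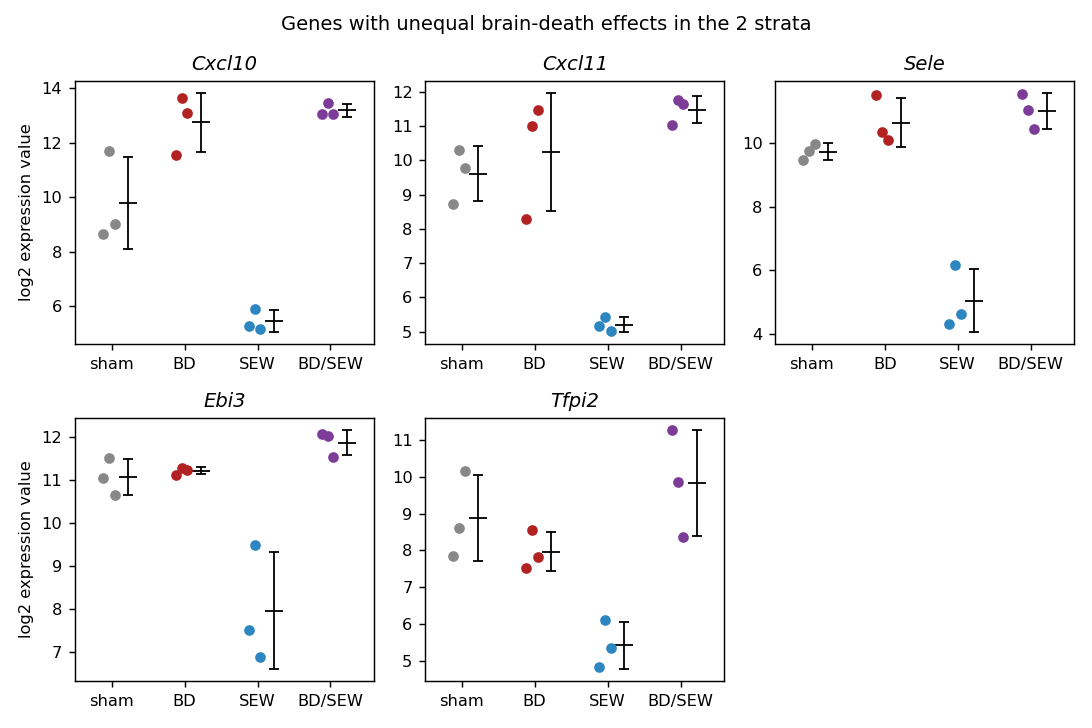
Log2 expression value of the 5 genes with the largest interaction on every array, by group, with points for the 3 arrays and a bar for the mean ± SD. The SEW arrays are the lowest in every panel, as for Cxcl10 at 5.14 to 5.88, while sham and BD overlap for all of them but Sele.

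Endothelial genes of flow and Notch signalling were unequal as well. Of 18 measured, 0 rose and 6 fell, and only the Notch ligand gene Jag1 was shared, with -0.46 and -0.37 and a call kept in 6 of 12 fits with 1 array left out. The flow-induced factor Klf2 had -0.14 and -1.75. The list mean was 10.06 to 10.11 in SEW, above the 9.34 to 9.75 of the other 3 groups. The count of falls was 3 without BD/SEW replicate 1 and 4 to 6 without any other array. Of 15 genes of endothelial identity, 1 rose and 1 fell. The rise was Car4, a carbonic anhydrase of lung capillaries, by 0.59 and 0.40, kept in 9 of 12 fits with 1 array left out. With the mean of its probe sets the average was 0.20 (limma adjusted p = 0.134) in place of 0.49.

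Of 10 platelet and red cell markers, 5 rose and 0 were shared, with medians of 0.37 and 1.38. Their mean was 7.73 to 8.38 in sham, 8.46 to 8.60 in BD, 7.45 to 8.36 in SEW and 8.85 to 9.54 in BD/SEW. Of 10 neutrophil markers, 2 rose and 0 were shared, with a mean of 9.24 to 10.13 in sham, 9.80 to 10.18 in BD, 8.51 to 10.08 in SEW and 10.49 to 10.94 in BD/SEW. The neutrophil rises numbered 6 without SEW replicate 2 and 2 without any other single array. These markers moved in the same direction as the cytokine, chemokine and NF-kappa-B lists, and their part in those rises was not tested. Of 12 macrophage and monocyte markers 1 rose and 0 fell (median 0.12), and of 11 basophil and mast cell markers 2 rose and 0 fell (median 0.02). Of 18 T and NK cell markers, 1 rose and 1 fell, the fall being the interleukin-7 receptor gene Il7r by 0.61 and 0.56. Lists with 0 calls were the cardiac, adipose, airway, B cell, and fibroblast and smooth muscle markers and the heat shock genes. At an unadjusted p under 0.05 they held 0, 3, 2, 0, 1 and 3 genes. Among 15 alveolar cell markers 1 rose and 0 were shared, and their mean level of 12.04 to 12.55 shows that the defining genes of lung were present on every array.

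The cut at 0.5 divides genes that differ little. Just inside it lay Polr1b (-0.34 and -0.67), Adam4 (-0.31 and -0.61) and Slc33a1 (-0.37 and -0.75). Just outside lay Zfp617 (0.39 and 0.77), Uqcc4 (-0.16 and -0.31) and Nadk (0.28 and 0.55). With a ratio of 0.67 the rule gave 350 genes, with 0.33 it gave 903, and with a shared sign alone 1298. A call in each stratum, in the same direction, was made for 55 genes. Of the 594, 351 were called and 234 met the whole rule in all 12 fits that left out 1 array.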

How the data were processed

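The deposited table holds log2 values of 31042 probe sets on 12 Affymetrix arrays, normalised by the authors. The submitters' processing notes list RMA, MAS5 and affy, with no version and no role for each. The arrays differed by at most 0.22 at any rank, and their medians were 7.34 to 7.41. The number of arrays limits the precision.

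An annotation table gave 20826 probe sets 1 symbol, 436 several and 9780 none. Of the first, 20758 matched RefSeq (GRCr8). The probe set with the highest mean stood for each of 4525 genes with several, which left 14217 genes. limma 3.58.1 (R 4.3.3) fitted a mean per group over all 12 arrays, with a mean-variance trend. Tests were two-sided, and p-values were adjusted by Benjamini-Hochberg over all genes. The fit was tested on simulated data.

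Named genes were the 15 largest shared rises and 15 largest shared falls whose groups did not overlap in either stratum and whose highest group mean was above the 25th percentile of gene means, up to 4 shared members of each of 39 lists, the 5 largest interactions among called genes, and S1pr1. Others were picked after their values were seen. Members and lists were chosen with earlier results of these data known. Alternatives covered scaling, filters, probe sets, weights, covariates, models and arrays left out.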

Additional observations from a re-analysis of the deposited data

Results flagged for a closer look

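The effect of brain death differed between animals with and without SEW-2871 for 135 genes by a test of the difference itself (limma interaction, adjusted p under 0.05). The 5 largest differences among genes also called for the average effect, each the effect with the drug less the effect without it on the log2 scale, are given here. They were 5.64 for Cxcl11 (95% interval 3.56 to 7.71, adjusted p = 0.0206), 5.32 for Tfpi2 (3.14 to 7.50, 0.0364), 5.06 for Sele (3.57 to 6.55, 0.00773), 4.79 for Cxcl10 (2.62 to 6.97, 0.0499) and 3.78 for Ebi3 (2.22 to 5.33, 0.0368). The drug animals without brain death were the lowest of the 4 groups for each of these genes. Groups of 3 arrays are too small for a test of single outlying arrays, and none was made.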

How the results depend on the processing

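Counts moved with the processing. Against 1351 genes called for the average effect, 607 were called at an adjusted p under 0.01, 505 with a 1.5-fold minimum, 2546 with array weights, 2232 when every probe set was tested, 2128 without 3 arrays (sham replicate 3, BD replicate 2 and SEW replicate 2), and 802 with brain death as the only factor. The rule for shared genes gave, in place of 594, 262 at the stricter p, 204 with the fold minimum, 350, 903 and 1298 at size ratios of at least 0.67, 0.33 and 0, 55 with a call in each stratum, 1200 with weights, 1061 over probe sets and 994 without the 3 arrays. Without the drug, in place of 84 calls, there were 22 at the stricter p, 383 with weights, 134 over probe sets, 499 without the 3 arrays, 29 with the cardiac covariate and 13 with the compared arrays only. With the drug, in place of 1392, there were 629 at the stricter p, 914 with the fold minimum, 2506 with weights and 2198 over probe sets. The interaction, in place of 135, gave 24 at the stricter p, 464 with weights, 418 without the 3 arrays and 81 with the cardiac covariate. Thresholds, ratios and probe sets change what is counted. For the other alternatives the cause was not tested.

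Leaving out 1 array at a time gave 901 to 1669 calls for the average effect, the fewest without BD/SEW replicate 2, and 392 (without that array) to 835 shared genes. It gave 26 (without BD replicate 1) to 227 (without BD replicate 2) calls without the drug, 790 (without BD/SEW replicate 1) to 1811 with it, and 38 (without BD/SEW replicate 2) to 235 (without SEW replicate 2) for the interaction. Of 1648 values of named genes under these alternatives, 1500 stayed on their side of the threshold, 148 lost the call and 0 reversed. All named genes but S1pr1 were picked among called genes, which makes a reversal unlikely. Dusp6, Gpx2 and Dnajb9 lost it with the arrays centred on their medians. With the cardiac covariate the same held for Pim2, Ppargc1a, Dusp6, Rgs3, RT1-M3-1, Gpx2, Gpx1, Dnajb9 and Tfpi2, and with a mean of probe sets for Il1a, Dusp6, Rgs3, Car4, Ndrg1 and Tfpi2.

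The replicate numbers were not taken as pairs. Over 18 pairs of arrays with the same number, deviations from the group means correlated between -0.186 and 0.375, above 0.1 in 8. With the number as a block, 1398 genes were called for the average effect, 605 were shared, 69, 1504 and 146 were called without the drug, with it and for the interaction.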
